A study of Mus musculus with 4 samples.

Results

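The 156 genes described here are the numbered zinc finger genes of the mouse, whose symbols are Zfp followed by a number, as they were measured in alveolar type 2 (AT2) cells after lung injury. They were chosen by name and count: protein-coding genes with a symbol of that form and at least 100 raw counts in each of the 4 libraries, which 156 of 366 such genes met, in a table of 40092 genes. The same count minimum was met by 9732 protein-coding genes. Because the counts themselves chose the members, their levels are given as a description. The libraries came from 2 genotypes with 2 libraries each, and the comparison between them asks which transcripts differ in AT2 cells that have lost Alkbh5. Ctrl was Alkbh5flox/+; Sftpc-CreERT2; Rosa26-mTmG and A5-CKO was Alkbh5flox/flox; Sftpc-CreERT2; Rosa26-mTmG, littermates whose ages the labels do not give. All mice received tamoxifen and then bleomycin, and GFP+ cells were sorted on day 14, so Ctrl cells also carry Cre and can lose 1 Alkbh5 allele. Cre activity and the GFP label follow the Sftpc promoter, and the loxP sites flank the ATG and exon 1 of Alkbh5. The labels do not say that each library came from a separate animal, so the p-values measure only the spread between these libraries.

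Zinc finger proteins of the C2H2 kind hold a zinc ion between paired cysteines and histidines, and arrays of such fingers read DNA sequence. Many of them also carry a KRAB box, which binds the corepressor Trim28 and through it recruits histone methylation and heterochromatin proteins. KRAB zinc finger proteins are best known for silencing transposable elements and for keeping imprinted genes in their parental state, and their genes lie in clusters that grew by duplication. Alkbh5 removes the methyl group of N6-methyladenosine from RNA. AT2 cells make pulmonary surfactant and renew the alveolar epithelium after injury.

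The library totals ran from 18144865 to 20811757 counts. Alkbh5 had 1381 and 2618 counts in the Ctrl libraries against 427 and 856 in the A5-CKO libraries, and its log2 fold change (A5-CKO over Ctrl) was -2.06 ± 0.46 (SE) in edgeR's quasi-likelihood test, with an adjusted p of 0.528. DESeq2 with its default filtering gave Alkbh5 an adjusted p of 0.0227. The AT2 markers were abundant, at a summed 54112 and 77412 CPM (counts per 1000000, scaled by TMM) in Ctrl against 40001 and 32942 CPM in A5-CKO, and 6 of the 9 were lower in both A5-CKO libraries. Of the 12 leukocyte and macrophage markers, which the sort should remove, the summed level was 909 and 216 CPM in Ctrl against 262 and 1119 in A5-CKO. The 8 mesenchymal markers summed to 425, 156, 98.6 and 1103 CPM in the same order of libraries. Both lists were highest in A5-CKO 2, and neither separated the genotypes. The 6 club and ciliated cell markers did, at 2883 and 2795 CPM in Ctrl against 2010 and 1277 CPM in A5-CKO, with 4 of them lower in both A5-CKO libraries, and their part in the results was not tested. A list of 6 nuclear RNAs, of which 5 were in the table and Meg3 was at 0, summed to 1211 and 1174 CPM in Ctrl but 6295 in A5-CKO 1 and 2093 in A5-CKO 2, mostly from Malat1 and Neat1.

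The name under which these genes were grouped, KRAB-type, covered fewer of them than it implies. The longest complete coding sequence of each gene in GENCODE M21 (build GRCm38) was translated and searched for a KRAB A box, a SCAN domain and finger motifs. The KRAB pattern was found in 59 of the 156 members, 4 of which (Zfp110, Zfp369, Zfp445 and Zfp213) also held the SCAN pattern. Another 4 members held SCAN alone, 63 held an array of at least 5 C2H2 fingers and no other pattern, 25 held fewer fingers, Zfp36 held CCCH fingers and 4 (Zfp703, Zfp330, Zfp839 and Zfp503) matched none. Among the 210 numbered zinc finger genes that missed the count minimum, 154 held the KRAB pattern, so the minimum left out most KRAB genes of the family. The members are therefore called numbered zinc finger genes here, and the 59 are called KRAB members. A degenerate box can escape the pattern.

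The KRAB A box is shown for the 5 KRAB members among the 20 genes named below for their genotype difference, because it is the feature that sets the 59 apart. Each run gives 20 codons, 5′ to 3′ on the coding strand, with the codons of the 5 anchor positions of the search in capitals (a tryptophan, a leucine, a glutamine, a leucine and an aromatic residue). Zfp445 was read at chr9:122856730-122856789, Zfp944 at chr17:22340998-22341057, Zfp810 at chr9:22284048-22284107, Zfp26 at chr9:20441360-20441419 and Zfp213 at chr17:23559411-23559470, all on the minus strand of GRCm38 and all inside 1 coding exon.
Zfp445: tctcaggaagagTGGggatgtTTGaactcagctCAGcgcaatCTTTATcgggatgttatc
Zfp944: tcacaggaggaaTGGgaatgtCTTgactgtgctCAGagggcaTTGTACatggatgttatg
Zfp810: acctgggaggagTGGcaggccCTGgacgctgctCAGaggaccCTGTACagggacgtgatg
Zfp26: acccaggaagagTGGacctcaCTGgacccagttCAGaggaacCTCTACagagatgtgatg
Zfp213: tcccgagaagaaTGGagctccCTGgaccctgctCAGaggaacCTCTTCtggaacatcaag
The first 4 of these genes had a higher level in both A5-CKO libraries than in either Ctrl library, and Zfp213 had a lower one.

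The first canonical C2H2 finger is shown for the 3 members with the smallest unadjusted p in each direction, because these fingers differ in base composition. They share the finger motif but encode different residues, so their base composition does not reflect codon choice alone. The cysteine and histidine codons that hold the zinc are in capitals. The runs lie at chr9:122853399-122853461 (minus strand, exon 7 of 7) in Zfp445, chr4:34811291-34811353 (minus, exon 8 of 8) in Zfp292, chr16:64786074-64786136 (minus, exon 8 of 9) in Zfp654, chr7:5017805-5017867 (plus, exon 3 of 3) in Zfp524, chr7:6189546-6189608 (plus, exon 5 of 5) in Zfp444 and chr7:6132987-6133049 (minus, exon 3 of 3) in Zfp787. The last line is the first CCCH finger of Zfp36, at chr7:28378158-28378217 (minus, exon 2 of 2), shown because the most abundant member belongs to another kind of zinc finger protein.
Zfp445: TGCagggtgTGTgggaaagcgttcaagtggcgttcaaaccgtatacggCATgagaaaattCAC
Zfp292: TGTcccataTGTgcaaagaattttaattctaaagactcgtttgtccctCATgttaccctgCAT
Zfp654: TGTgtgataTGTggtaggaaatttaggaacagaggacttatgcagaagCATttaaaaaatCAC
Zfp524: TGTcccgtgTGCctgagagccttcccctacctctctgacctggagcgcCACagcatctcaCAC
Zfp444: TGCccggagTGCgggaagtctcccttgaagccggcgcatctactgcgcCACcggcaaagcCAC
Zfp787: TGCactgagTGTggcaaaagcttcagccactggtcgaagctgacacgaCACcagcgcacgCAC
Zfp36: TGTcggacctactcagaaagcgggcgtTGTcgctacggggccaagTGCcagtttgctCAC
The fingers of Zfp445, Zfp292 and Zfp654, which had more counts in A5-CKO, were 49.2%, 38.1% and 34.9% G or C. Those of Zfp524, Zfp444 and Zfp787, which had fewer, were 61.9%, 66.7% and 58.7%. Over all C2H2 fingers of a gene, the median GC content was 44.7% in the 37 members above Ctrl in both A5-CKO libraries and 59.3% in the 28 members below, against 50.8% over the 151 members with fingers.

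No member passed the genotype test after adjustment over the 16661 genes tested. In edgeR's quasi-likelihood test, which is two-sided, 0 of 156 members and 0 of all genes (0%) had an adjusted p under 0.05, and the smallest adjusted p of a member was 0.528. At an unadjusted p under 0.05, 9 members were higher in A5-CKO (5.77%, against 4.48% of all genes tested) and 4 were lower (2.56%, against 4.71%). Both A5-CKO libraries lay above both Ctrl libraries in 37 members (23.7%, against 20.3% of all genes), and below in 28 members (17.9%, against 23.5%). The shares of higher members were near this background, and the shares of lower members were under it. Among the protein-coding genes with the same count minimum, 2.92% were higher and 6.89% lower at an unadjusted p under 0.05, and 15.4% lay above and 31.9% below Ctrl in both A5-CKO libraries, so the members had larger shares above and smaller shares below than these genes. DESeq2 with default filtering called 59 of 15525 genes (0.38%) and 0 members. It gave 1827 genes, with 16 of the 156 members among them, an unadjusted p under 0.05. That p covers every gene with any count and not only the 15525, so no share is given. DESeq2 on the same 16661 genes as edgeR also called 0 members, with 1776 genes and 18 members at an unadjusted p under 0.05. In limma voom 0 members were called, and 1445 of the 16661 genes and 11 members had an unadjusted p under 0.05.

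The members as a whole had a median log2 fold change of 0.18, with 90 above 0 and 66 below, in a range from -1.38 to 1.48. It was 0.01 after a correction for GC content and transcript length, and -0.09 without the library A5-CKO 1. The median over all genes tested was -0.02, and over the 9732 protein-coding genes with the same minimum it was -0.16. Among other zinc finger families, Zbtb genes with the same minimum (n = 28) had a median of 0.19, and Zkscan and Zscan genes (n = 15) had 0.13. Both turned with the correction (-0.09 and -0.03), Zbtb genes also without Ctrl 1 (-0.02) and Zkscan and Zscan genes without A5-CKO 1 (-0.10, where Zbtb genes were at 0.0026). The median of the KRAB members was 0.37, with 44 above 0 and 15 below. In both A5-CKO libraries 18 lay above Ctrl (30.5%, against 20.3% of all genes tested) and 3 below (5.08%, against 23.5%), which were Zfp213, Zfp282 and Zfp324. At an unadjusted p under 0.05 in edgeR, 3 KRAB members were higher (5.08%, against 4.48% of all genes) and 0 were lower (against 4.71%). Without A5-CKO 1 the median of the KRAB members was -0.06, and after the correction it was 0.13. The 97 members without the KRAB pattern had a median of -0.04, with 46 above 0 and 51 below. This median was 0.27 when libraries were scaled by total counts alone, 0.10 without Ctrl 2 and 0.06 without A5-CKO 2. Of these members, 19 lay above Ctrl in both A5-CKO libraries (19.6%) and 25 below (25.8%), near the shares of all genes. No test was made between these groups, because members are not replicates. Bulk counts cannot tell fewer cells that express a gene from less RNA per cell.

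Named genes with higher counts in A5-CKO come first. Zfp445, a KRAB and SCAN factor that maintains imprinted methylation together with Zfp57, had 41.5 and 45.3 CPM in the Ctrl libraries and 169 and 72.5 CPM in A5-CKO 1 and A5-CKO 2. Both A5-CKO values exceeded both Ctrl values, and A5-CKO 2 lay closer to Ctrl than to A5-CKO 1. Its level was 43.4 ± 2.65 CPM (SD, n = 2) in Ctrl and 121 ± 68.0 CPM (SD, n = 2) in A5-CKO, a 2.78-fold difference with a log2 fold change of 1.48 ± 0.43 (SE). Its unadjusted p in edgeR, 0.0116, stayed under 0.05 in 14 of 15 alternative fits, and the exception was the fit without A5-CKO 1, where its log2 fold change was 0.73. All 15 fits reuse the counts by which the gene was picked, so the tally is a description and no independent support. They include a crossed pairing of the replicates as a block, which was chosen after seeing the data. The same holds for the tallies of other genes below. The partner of Zfp445, Zfp57, an oocyte and embryo factor, had 0 counts in both Ctrl libraries and 1 and 2 in A5-CKO, and so was no member. Zfp292, a large factor with 14 fingers, had 17.98 and 14.5 CPM in Ctrl against 53.1 and 28.6 CPM in A5-CKO, with a log2 fold change of 1.33 ± 0.41. Zfp654, with 5 fingers, had 15.4 and 10.4 CPM against 30.6 and 24.6 CPM and a log2 fold change of 1.09 ± 0.39. In both genes A5-CKO 1 was the highest library.

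**Figure D1:**
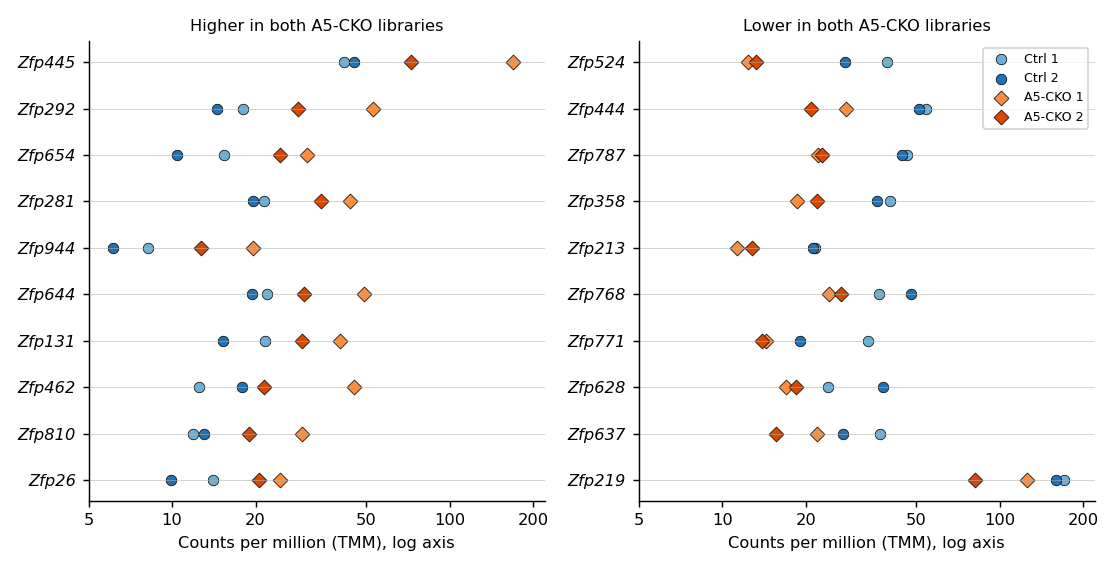
Level of the 10 members with the smallest unadjusted p in each direction, as CPM on a log axis, with each of the 4 libraries as 1 point (circles Ctrl, diamonds A5-CKO). In the left panel A5-CKO 1 is the highest library in all 10 genes, and in the right panel the A5-CKO libraries lie close together in most genes.

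The other higher members named had log2 fold changes between 0.91 and 1.17. Of the 9 higher members at an unadjusted p under 0.05, those besides Zfp445 stayed there in fewer of the 15 alternative fits, from 8 (Zfp462, Zfp644 and Zfp810) to 12 (Zfp292). Zfp281, a regulator of pluripotency genes, had 21.4 and 19.5 CPM in Ctrl against 43.9 and 34.3 CPM in A5-CKO, with a log2 fold change of 0.93 ± 0.33. Zfp462 and Zfp644, partners of the histone H3 lysine methyltransferases Ehmt1 and Ehmt2, had log2 fold changes of 1.13 ± 0.46 and 0.93 ± 0.37. Zfp462, with 33 fingers, had 12.5 and 17.9 CPM in Ctrl against 45.1 and 21.4 CPM in A5-CKO. Its A5-CKO 2 value was close to that of Ctrl 2. Zfp131, a BTB zinc finger protein, had 21.6 and 15.3 CPM against 40.4 and 29.3 CPM. The KRAB members Zfp944, Zfp810 and Zfp26 had log2 fold changes of 1.17 ± 0.46, 0.95 ± 0.39 and 0.91 ± 0.39. Zfp944 was low, at 138 and 105 counts in Ctrl and 431 and 297 in A5-CKO.

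The KRAB members with a textbook role had log2 fold changes above 0. Zfp809, which silences retroviral DNA through the tRNA primer binding site, had 26.0 and 24.7 CPM in Ctrl against 46.2 and 33.5 CPM in A5-CKO, with a log2 fold change of 0.65 ± 0.33. Zfp568, a repressor of a placental Igf2 promoter in the embryo, had 16.4 and 16.1 CPM against 22.9 and 34.02 CPM, and unlike the genes above it was highest in A5-CKO 2. Its log2 fold change was 0.81 ± 0.37. Zfp266 (0.29 ± 0.30) and Zfp369 (0.50 ± 0.39), of which the latter interacts with the neurotrophin receptor p75, lay above Ctrl in both A5-CKO libraries, in either gene by less than 1 CPM for A5-CKO 2. Zfp110, a relative of Zfp369, overlapped between genotypes at 50.8 and 58.6 CPM in Ctrl against 65.4 and 52.1 CPM in A5-CKO. None of these 5 had an unadjusted p under 0.05 in edgeR, and the smallest was 0.0667 for Zfp568.

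The 3 members with the smallest p among those lower in A5-CKO all lie on chromosome 7. Zfp524, whose human counterpart binds telomeric repeats, had 39.1 and 27.8 CPM in Ctrl against 12.4 and 13.3 CPM in A5-CKO, a 2.60-fold lower level with a log2 fold change of -1.38 ± 0.36. It is also the least certain of them, since 46.0% of the 50-base windows of its transcripts occur in another gene and it overlaps exons of another gene on each strand. Zfp524 and Zfp444 had an unadjusted p under 0.05 in 14 of 15 alternative fits, with the exception of that without Ctrl 1 for Zfp524 and that without A5-CKO 2 for Zfp444. Zfp787 had one in 12 and Zfp358 in 9. Zfp444, a SCAN member, had 54.0 and 51.1 CPM against 27.9 and 20.9 CPM, with a log2 fold change of -1.11 ± 0.32. Zfp787, with 7 fingers, had 46.2 and 44.4 CPM against 22.2 and 23.0 CPM, with a log2 fold change of -1.01 ± 0.31. The replicates of Zfp787 differed by less than 2 CPM in either genotype, and its Ctrl level was 2.01 times that of A5-CKO. This gene overlaps an exon of another gene on the same strand. Zfp358 followed with -0.91 ± 0.33. The other 6 of the 10 lower genes named, Zfp213, Zfp768, Zfp771, Zfp628, Zfp637 and Zfp219, had log2 fold changes between -0.89 and -0.68 and unadjusted p from 0.0579 to 0.0793. Zfp219 was among the most abundant members, at 171 and 159 CPM in Ctrl against 125 and 81.6 CPM in A5-CKO.

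Of the 5 most abundant members per kilobase of transcript, 3 overlapped between genotypes, and Zfp219 (given above) and Zfp706 were lower in both A5-CKO libraries. Zfp36 (tristetraprolin), which binds AU-rich elements and promotes decay of cytokine mRNAs, was the highest by far at 365 CPM per kilobase, against a median of 5.62 over the members. It had 763 and 1430 CPM in Ctrl against 1312 and 567 CPM in A5-CKO, so each genotype held 1 high and 1 low library, and its log2 fold change was -0.22 ± 0.53. Zfp207, a spindle assembly and splicing factor, had 148 and 112 CPM against 145 and 126 CPM. Zfp598, the ubiquitin ligase that senses collided ribosomes, had 97.3 and 123 CPM against 106 and 93.8 CPM. Zfp706 had 165 and 187 CPM against 127 and 129 CPM, and so lay lower in both A5-CKO libraries with a log2 fold change of -0.46 ± 0.29. Of the 5, Zfp36 varied most between libraries of 1 genotype.

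Of the 31 genes listed for a known role, 23 were members. Among these, 12 lay above Ctrl in both A5-CKO libraries, 0 lay below and 11 overlapped. Over all genes tested, 20.3% lay above and 23.5% below. The list was drawn up with earlier results of these data known, so its counts are a description. Those not yet described follow. Zfp91 (126 and 140 CPM in Ctrl, 144 and 178 in A5-CKO), a ubiquitin ligase of the non-canonical NF-kB pathway, Zfp143 (13.7 and 12.8, 23.7 and 15.3), an activator at many promoters, and Zfp263 (23.1 and 28.4, 38.4 and 30.9) lay above Ctrl in both A5-CKO libraries. Zfp106, Zfp148, Zfp217, Zfp326, Zfp335, Zfp384, Zfp638 and Zfp703 overlapped, with log2 fold changes from -0.32 for Zfp335 to 0.89 for Zfp638. Zfp638, which silences unintegrated retroviral DNA, had 43.2 and 21.8 CPM in Ctrl against 83.3 and 37.1 CPM in A5-CKO. Of the 8 listed genes that were no members, Zfp42, the pluripotency marker Rex1, was at 0 in every library. Zfp365 missed the minimum only through Ctrl, with 89 and 63 counts against 405 and 472 in A5-CKO. Zfp932 missed it likewise, with 80 and 50 counts against 387 and 110.

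Across the members, the genotype difference followed base composition. Spearman's rho between the log2 fold change and the GC content of the longest transcript was -0.68 over the 156 members, and -0.47 over 9594 protein-coding genes with the same minimum. These are descriptions across genes, which share the 4 libraries and are not independent. In the 52 members of lowest GC content the median log2 fold change was 0.53 (47 above 0), in the 52 of middle GC content it was 0.19 (33 above 0), and in the 52 of highest GC content it was -0.30 (10 above 0). KRAB members had a lower median GC content (43.7%) than members without the pattern (51.0%). GC content also went with differences inside a genotype, with a rho of 0.45 for Ctrl 2 minus Ctrl 1 and 0.39 for A5-CKO 2 minus A5-CKO 1. The other features went less with the difference across the members: rho was 0.22 for transcript length, 0.19 for the number of fingers and -0.14 for GGACT motifs per kilobase of transcript, a common sequence around N6-methyladenosine. Over the 9594 protein-coding genes, however, rho for transcript length was 0.45, similar in size to that for GC content. The part of base composition in the KRAB difference was not tested.

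**Figure D2:**
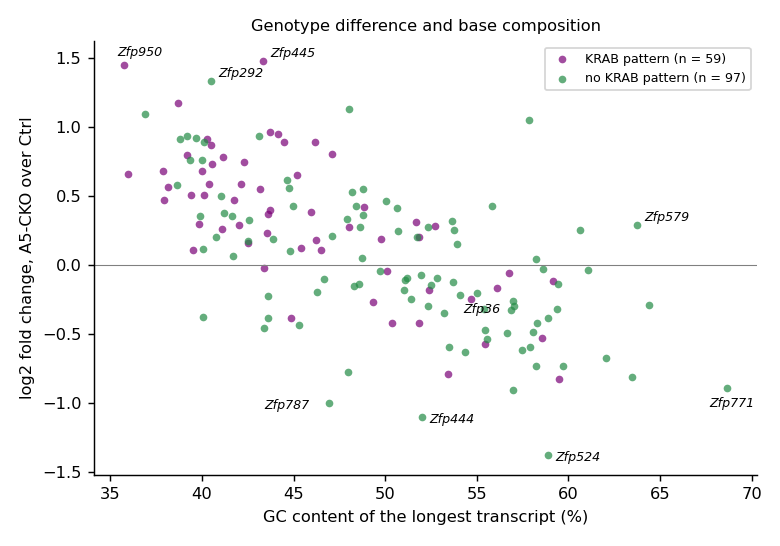
Log2 fold change (A5-CKO over Ctrl) of each of the 156 members against the GC content of its longest transcript, with KRAB members in purple and the others in green. The points fall from upper left to lower right (rho -0.68), and KRAB and other members of like GC content overlap.

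When each library was corrected smoothly for GC content and transcript length, the members had a median of 0.01 and the KRAB members 0.13, against -0.18 for the protein-coding genes with the same minimum. Under this correction 1 member, Zfp445 (log2 fold change 1.01), was higher at an unadjusted p under 0.05, and 6 were lower (Zfp787, Zfp444, Zfp524, Zfp706, Zfp622 and Zfp277). Over all 15237 genes in this fit, 368 were higher and 751 lower at that threshold. Zfp444 and Zfp787 kept their size, at -1.17 and -1.07. Zfp292, Zfp654, Zfp644 and Zfp26 went down to 0.59, 0.41, 0.30 and 0.13. Zfp148 and Zfp266 turned, to -0.40 and -0.31, as did 5 other named members by less.

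The KRAB difference was largest in a single library. The median deviation of the KRAB members from their own mean over the 4 libraries (log2) was 0.47 in A5-CKO 1 but -0.09 in A5-CKO 2, -0.15 in Ctrl 1 and -0.17 in Ctrl 2. A5-CKO 1 was above A5-CKO 2 in 50 of the 59 KRAB members and in 120 of all 156. Without A5-CKO 1 the KRAB members had a median log2 fold change of -0.06 and all members one of -0.09. In that fit all genes stood at -0.09 and the protein-coding genes with the same minimum at -0.19. Without A5-CKO 2 the median was 0.58 over the KRAB members, and without Ctrl 1 or Ctrl 2 it was 0.46 or 0.30. A5-CKO 1 was also the library with the most nuclear RNA, with Malat1 at 3600 CPM against 1301 in A5-CKO 2 and 722 and 621 in Ctrl, and members took 0.75% of its counts against 0.48% to 0.56% in the others. Whether these go together was not tested.

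**Figure D3:**
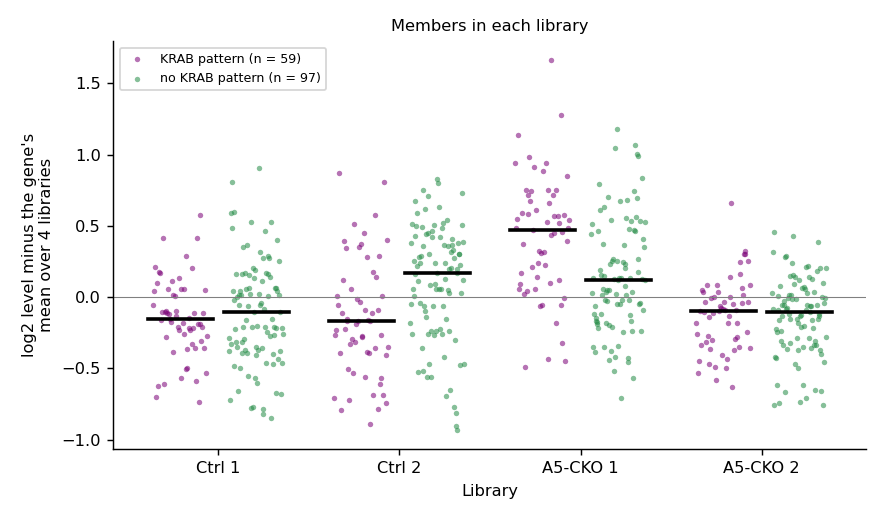
Log2 level of every member in each library, as the difference from the gene's mean over the 4 libraries, with KRAB members in purple, the others in green and black bars at the medians. The KRAB median stands at 0.47 in A5-CKO 1 and between -0.17 and -0.09 in the other 3 libraries.

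The members that varied most inside a genotype showed the same library. Zfp950, a KRAB member of low GC content, had 13.5 and 7.91 CPM in Ctrl against 48.8 and 9.57 CPM in A5-CKO. Zfp612, also KRAB, had 7.92 and 13.3 CPM in Ctrl against 29.7 and 9.57 CPM, and Zfp579, which lacks the box and has a GC content of 63.8%, had 22.8 and 25.1 CPM against 44.1 and 14.4 CPM. In all 3 genes A5-CKO 2 lay inside the range of the Ctrl libraries or below it. Their log2 fold changes of 1.44, 0.89 and 0.29 became -0.17, -0.16 and -0.75 without A5-CKO 1. Of the 3 members with most fingers, Zfp462 stood apart in A5-CKO 1, as its levels above show. Zfp142 (36 fingers) and Zfp236 (30 fingers) were instead lowest in Ctrl 1, at 9.34 and 16.9 CPM, while their other 3 libraries lay between 19.0 and 21.4 CPM and between 31.2 and 39.4 CPM.

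**Figure D4:**
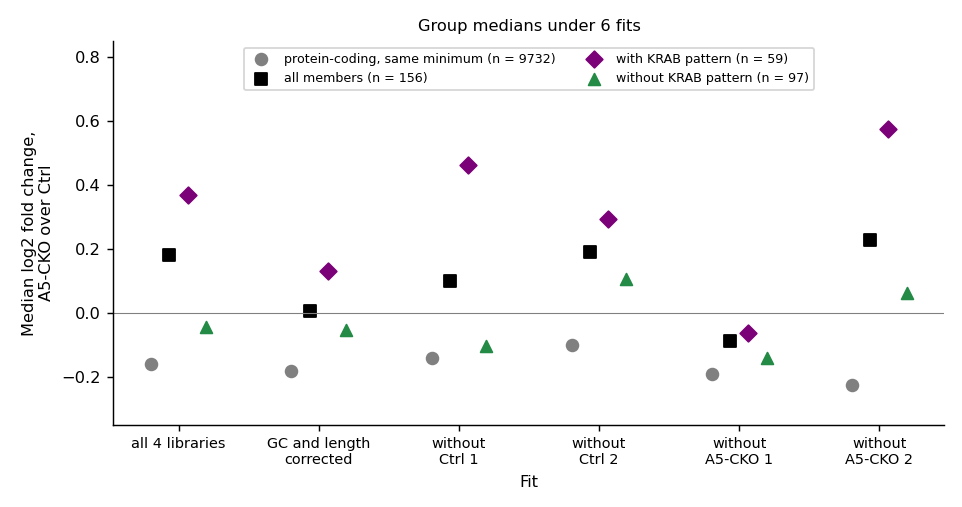
Median log2 fold change (A5-CKO over Ctrl) of the members, the KRAB members, the members without the KRAB pattern and all protein-coding genes with the same count minimum, in the fit of all 4 libraries, after the smooth correction, and without each library in turn. The KRAB median goes from 0.37 to 0.13 with the correction and to -0.06 without A5-CKO 1.

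The members lay on 19 chromosomes, with 39 on chromosome 7, and neighbours had values of the same side in several runs. A run was taken as at least 3 members with gaps of no more than 500 kb, and there were 11. The run on chr7:127233061-127885996, with 8 members from Zfp553 to Zfp646 of which 2 were KRAB, had a median log2 fold change of -0.30 with 1 above 0. The other runs on chromosome 7 had medians of -0.26, -0.04, 0.10 and 0.35. In the last of these, all 5 members, from Zfp84 to Zfp146, lay above 0. The 7 members on chr6:47835633-48621548, from Zfp398 to Zfp775, had a median of -0.25 with 1 above 0, although 5 of them were KRAB. All 4 KRAB members on chr9:20428318-20605404 (Zfp26, Zfp426, Zfp266 and Zfp846) lay above 0, with a median of 0.44. The 4 KRAB members on chr8:69209018-69774911 (Zfp930, Zfp868, Zfp869 and Zfp866) were likewise above 0, with a median of 0.48. The run on chr9:22055411-22307814 had the highest median, 0.70, from the KRAB members Zfp872, Zfp809 and Zfp810, whereas its 1 member without the box, Zfp653, was at -0.20. Neighbouring genes of 1 duplication share sequence and base composition, so they are not separate observations.

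**Figure D5:**
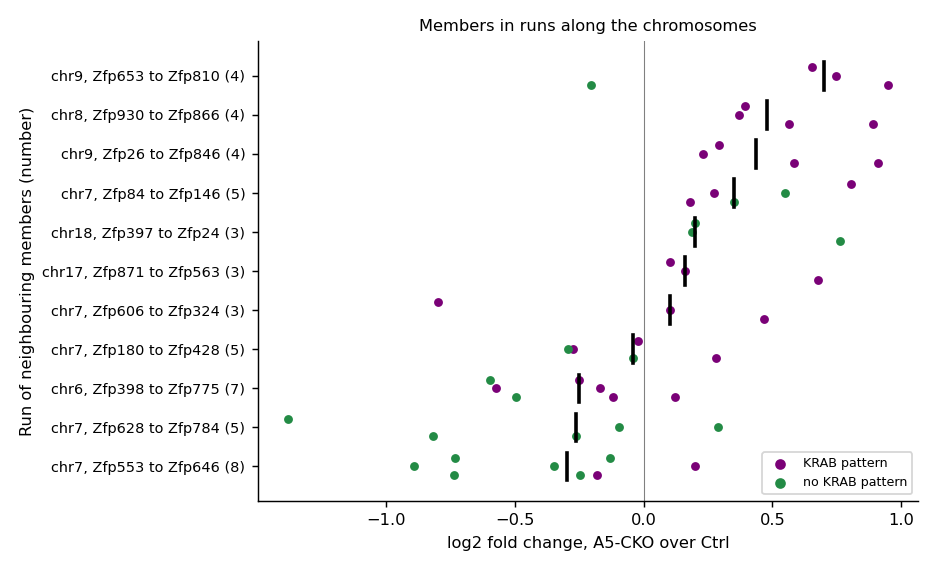
Log2 fold change (A5-CKO over Ctrl) of the members in each of the 11 runs of neighbouring members, with KRAB members in purple, others in green, a black bar at the run's median and the number of members in parentheses. The runs on chromosome 9 lie to the right of 0 but for Zfp653, and the runs on chromosome 6 and at Zfp553 to Zfp646 lie mostly to the left.

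The corepressor machinery that KRAB proteins use had genes on either side. Of the 31 listed genes tested, 0 passed the adjusted threshold in edgeR or DESeq2, 1 was higher and 1 lower at an unadjusted p under 0.05 in edgeR, and the median log2 fold change was 0.11 (-0.06 with the GC and length correction, -0.02 without Ctrl 1 and -0.05 without A5-CKO 1) with 17 above 0 and 14 below. Trim28, the scaffold that the KRAB box binds, had 200 and 204 CPM in Ctrl against 123 and 148 CPM in A5-CKO, so it lay lower in both A5-CKO libraries, with a log2 fold change of -0.58 ± 0.30. Setdb1, the histone methyltransferase that acts with it, overlapped at 35.5 and 40.2 CPM against 46.1 and 37.5 CPM. Tasor, a subunit of the HUSH silencing complex, had 24.8 and 23.2 CPM against 78.5 and 36.8 CPM and a log2 fold change of 1.26 ± 0.42, with A5-CKO 1 again the highest. Its partners Mphosph8 and Pphln1 were also above Ctrl in both A5-CKO libraries, at 0.86 ± 0.49 and 0.30 ± 0.31. Mbd3, a subunit of the NuRD complex, had 153 and 150 CPM against 81.8 and 102 CPM and a log2 fold change of -0.72 ± 0.29. Rbbp4 (-0.63 ± 0.28), Sumo2 (-0.57 ± 0.28) and Ehmt2 (-1.64 ± 0.71, from 18 to 60 counts) also lay below Ctrl in both A5-CKO libraries. In the list, 8 genes lay above (25.8%, against 20.3% of all genes tested) and 6 below (19.4%, against 23.5%). Mta1, with at most 5 counts, was not tested.

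The count minimum shaped which zinc finger genes were seen. Just inside it were Zfp169 and Zfp691 with a lowest count of 101 and Zfp764 with 102, and just outside were Zfp334, Zfp341 and Zfp747 with 98. The 164 numbered zinc finger genes under the minimum that had enough counts for the test had a median log2 fold change of 0.56, with 131 above 0 and 33 below, and a median GC content of 42.03%. Their median was 0.11 without A5-CKO 1 and 0.34 with the GC and length correction. A minimum in every library leaves out genes that are low in 1 genotype. With a mean of at least 100 counts in its place there were 221 genes with a median of 0.28. Such a mean lets in genes that are high in only 1 genotype, such as Zfp365, so this median depends on the rule. With at least 50 or 200 counts in every library there were 231 or 110 genes, with medians of 0.26 and 0.08. Of the 156 members, 47 overlapped an exon of another gene on the opposite strand and 14 on the same strand, and in 10 more than 10% of the 50-base windows recurred in another gene. Whether counting used strand is not given in the sources used here, so reads of such pairs cannot be told apart.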

How the data were processed

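RNA was sequenced from sorted GFP+ AT2 cells of 2 Ctrl and 2 A5-CKO libraries. The authors trimmed paired-end reads (Trim Galore 0.6.10), aligned to mm10.p6 with HISAT2 2.2.1, removed duplicates and deposited raw counts per gene from featureCounts 2.0.3. These tools are from the submitters' processing notes. The methods describe gene counting under MeRIP-seq, and under RNA-seq a removal of ribosomal RNA reads with peak calling, so whether ribosomal reads were removed before these counts is unsure. Removing duplicates can lower the counts of abundant genes. The counts were analysed here with edgeR 4.0.16 in R 4.3.3: filterByExpr, TMM scaling, quasi-likelihood fit and Benjamini-Hochberg adjustment over 16661 genes. CPM are TMM-scaled. DESeq2 1.42.0, limma 3.58.1, other scalings and filters, a replicate block, a spline correction for GC content and length, and leaving out each library were tried. The code was tested on simulated data. A count of 3 corresponds to 0.128 to 0.177 CPM, and this floor covers counting error only. The SE of a log2 fold change comes from the quasi-likelihood fit and includes the estimated spread between these libraries.

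The members and gene lists were chosen with earlier results of these data known. Named genes are the 10 members with the smallest unadjusted p in each direction among those whose genotypes do not overlap, the 5 of highest CPM per kilobase, the 3 just inside and outside the minimum, 31 genes with a textbook role, the 3 with most fingers, the 3 that varied most inside a genotype, and the corepressor list, of which not every gene is reported here. Zfp622, Zfp277, Zfp282, Zfp324, Zfp330, Zfp839, Zfp503 and the genes listed by run were named after their values were seen. Gene coordinates are from NCBI RefSeq (GRCm38.p6), which matched all 156 members, and transcripts are from GENCODE M21. Transcript sequence, GC content and domains refer to the longest model. No RefSeq protein table was used, so domain classes come from translated GENCODE models, unlike first planned.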

Additional observations from a re-analysis of the deposited data

How the results depend on the processing

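No member was called at an adjusted p under 0.05 in any of the 14 fits planned besides the first. Scaling by total counts alone shifted the median of all genes by 0.32 (log2). With it the medians moved to 0.49 for the members, 0.67 for the KRAB members, 0.27 for the members without KRAB and 0.44 for the corepressor list. In edgeR it put 1877 of 16661 genes and 22 of 156 members at an unadjusted p under 0.05. It also turned Zfp36 (0.11), Zfp598 (0.18), Zfp764 (0.15), Zfp335 (0.013) and Zfp384 (0.18). DESeq2 called 55 of the genes edgeR tested, and 59 with its own filter, Alkbh5 among them (-2.01 and -2.02). The correction for GC content and length left 1119 of 15237 genes and 7 of 156 members at an unadjusted p under 0.05 in edgeR. It moved the corepressor median to -0.056, and turned Zfp207 (-0.24), Zfp598 (0.11), Zfp106 (-0.20), Zfp110 (-0.050), Zfp148 (-0.40), Zfp266 (-0.31) and Zfp326 (-0.053). With a mean of 100 or more counts as the minimum, 20 of 221 genes had an unadjusted p under 0.05 in edgeR. Among the 59 KRAB members alone 3 did, at a median of 0.37, against 9.18% of all genes tested. The causes were not tested.

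No label says that the replicate numbers pair the libraries, and deviations of Ctrl 1 and A5-CKO 1 from the means of their genotypes correlated at -0.35. With the replicate number as a block, 754 genes and 6 members had an unadjusted p under 0.05, against 1530 and 13 without it. With the crossed pairing as a block, chosen after seeing the data and with no basis in the labels, 230 genes including 1 member (Zfp445) had an adjusted p under 0.05, and 2582 genes and 23 members an unadjusted one.

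Leaving out each library in turn gave 746 to 1668 genes and 2 to 14 members at an unadjusted p under 0.05, with the fewest of both without A5-CKO 1, and 8 members without Ctrl 2. The medians ran from -0.089 to 0.23 for the members, -0.062 to 0.58 for the KRAB members and -0.050 to 0.20 for the corepressor list, the first of each without A5-CKO 1. The lone library left in a genotype is then assumed to vary like the other genotype. The named members that turned in at least 1 of these fits had log2 fold changes of Zfp217 -0.12 to 0.65, Zfp142 -0.10 to 0.99, Zfp236 -0.18 to 0.94, Zfp36 -0.96 to 0.25, Zfp207 -0.17 to 0.33, Zfp764 -0.41 to 0.13, Zfp335 -0.58 to 0.050, Zfp384 -0.37 to 0.14, Zfp110 -0.081 to 0.23, Zfp950 -0.17 to 2.16, Zfp579 -0.75 to 0.85, Zfp612 -0.16 to 1.45 and Zfp703 -0.14 to 0.52. Of the 48 named members, 30 turned in none of the 14 planned fits, which include the other scalings, filters and corrections. Many of the 48 were named because their genotypes do not overlap, and leaving out a library can hardly turn such a gene. Of the named members without overlap only Zfp266 turned, with the GC and length correction, and of those with overlap only Zfp638 did not. The count therefore mostly restates how the genes were picked and is no independent support. Having 2 libraries a genotype limits every p here.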
